A study of Mus musculus with 8 samples.

Results

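The NF-κB subunits and feedback genes are 9 genes, taken by symbol from the 37310 genes of the count table: *Nfkb1*, *Nfkb2*, *Rela*, *Relb*, *Nfkbia*, *Nfkbie*, *Tnfaip3*, *Birc3* and *Bcl3*. They were followed through 8 RNA-seq libraries of the mouse mammary epithelial line NMuMG, 2 in each of 4 groups. Control cells were left untreated or were given TGF-β1 at 10 ng/ml for 2 h, and cells labelled KO were handled in the same 2 ways. The cells labelled KO carry a CRISPR-Cas9 deletion between cut sites in the promoter and the first exon of the long non-coding RNA *Lnc-Nr6a1*. They were grown up from sorted single cells. How many such clones were sequenced, and whether control cells had been through the same cloning, is not given in the sources used here. The study asked how loss of *Lnc-Nr6a1* changes expression in these cells, and whether the response to TGF-β, which induces this RNA early, depends on it. TGF-β starts an epithelial-to-mesenchymal transition in NMuMG.

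NF-κB transcription factors are dimers of Rel-family subunits. In resting cells they are held in the cytoplasm by IκB proteins, and receptors for cytokines and microbial products free them through a kinase complex that marks IκB for degradation. The freed dimers bind κB sites and switch on genes of inflammation and survival. Among these are genes of their own inhibitors and of several of their subunits, so that transcripts of the pathway commonly serve as a readout of its activity. Of the 9 genes, *Nfkb1* and *Nfkb2* encode precursors that are processed to DNA-binding subunits, and *Rela* and *Relb* encode subunits with an activation domain. *Nfkbia* and *Nfkbie* encode IκBα and IκBε, *Tnfaip3* a ubiquitin-editing enzyme that shuts off signalling to the kinase complex, *Birc3* a ubiquitin ligase of the TNF receptor complex, and *Bcl3* a nuclear IκB-like coactivator.

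The start regions of these genes are shown because feedback genes of this pathway are known to carry κB sites near their starts. RefSeq's table of promoters on GRCm38.p6 (250 bases before to 50 after a transcript start) held 10 windows for 7 of the 9 genes, and none for *Nfkb1* and *Relb*. The κB consensus, searched by name on both strands, was found in 7 of the 10 windows, and in at least 1 window of *Nfkb2*, *Nfkbia*, *Nfkbie*, *Tnfaip3* and *Bcl3*. It was found in no window of *Rela* and *Birc3*. Over all windows of the table it was present in 2779 of 32851 (8.46%), and in 23 of 69 (33.3%) windows of other genes of the pathway. The windows of *Nfkb2* starting at 46305445 and 46305680 overlap and hold the same match, which is thus counted in both. Counted by gene, it was present in 5 of 7 of these genes, 22 of 54 other genes of the pathway and 2581 of 27025 genes in all. A match is a description of the sequence and not evidence that the site was used in these cells. The windows of *Nfkbia* and *Tnfaip3*, the genes with the largest difference between the libraries of a treated group, and a window of *Nfkb2* with 2 separate stretches of matches, are printed 5′ to 3′ on the strand of the gene, with the matches in capitals. The windows are chr12:55492598-55492897 on the minus strand for *Nfkbia*, chr10:19015361-19015660 on the minus strand for *Tnfaip3* and chr19:46304487-46304786 on the plus strand for *Nfkb2*.
Nfkbia: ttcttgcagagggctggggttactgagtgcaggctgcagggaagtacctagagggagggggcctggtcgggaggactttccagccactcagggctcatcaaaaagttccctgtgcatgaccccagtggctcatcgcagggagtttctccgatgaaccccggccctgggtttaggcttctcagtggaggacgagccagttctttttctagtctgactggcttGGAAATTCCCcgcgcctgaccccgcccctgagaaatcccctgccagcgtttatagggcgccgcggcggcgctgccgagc
Tnfaip3: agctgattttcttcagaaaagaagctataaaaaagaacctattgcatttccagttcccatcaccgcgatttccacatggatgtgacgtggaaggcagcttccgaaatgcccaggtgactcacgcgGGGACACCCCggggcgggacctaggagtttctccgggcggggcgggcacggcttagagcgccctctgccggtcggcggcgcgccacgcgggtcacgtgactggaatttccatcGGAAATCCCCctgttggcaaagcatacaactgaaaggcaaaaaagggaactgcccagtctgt
Nfkb2: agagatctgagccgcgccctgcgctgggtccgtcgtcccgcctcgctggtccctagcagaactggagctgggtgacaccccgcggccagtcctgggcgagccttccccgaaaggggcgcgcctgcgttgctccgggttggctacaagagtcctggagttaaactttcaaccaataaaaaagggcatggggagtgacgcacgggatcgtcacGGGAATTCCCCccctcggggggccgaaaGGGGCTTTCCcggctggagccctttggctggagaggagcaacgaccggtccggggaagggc
In *Nfkbia* the match starts 29 bases before the transcript start, in *Tnfaip3* matches start 125 and 12 bases before it, and in *Nfkb2* 39, 38 and 11 bases before it, where the first 2 overlap.

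Levels are CPM, read counts scaled to library size with edgeR's TMM factors. The untreated libraries held 4297832 to 7871090 counts and the treated libraries 9895118 to 13574397, so that 3 counts stand for 0.238 to 0.661 CPM. Values under this floor are printed as listed and do not show that a gene is expressed, and the floor covers counting error only. All 9 genes were among the 13028 kept by edgeR's filterByExpr, which drops genes of low count. *Lnc-Nr6a1* (listed as Gm13507) had 3 and 14 counts in untreated control cells and 11 and 7 in untreated cells labelled KO, so it does not check the labels there. It had 25 and 35 counts in treated control cells and 0 and 0 in treated cells labelled KO. The groups are therefore called libraries labelled KO throughout. Of 5 epithelial markers, *Cdh1*, *Krt8* and *Krt18* were high in every library, while *Epcam* was at 0 in 7 of the 8 libraries and at 0.187 CPM in the other. *Cldn4* was at 0 in 3 of the untreated libraries and at 0.121 CPM in the other, so that of the 5 markers these 2 were absent or nearly so in untreated cells. Markers of leukocytes summed to 2.15 to 5.58 CPM, with *Ptprc* at 0.212 CPM or below, those of endothelium to 0.847 CPM or below and those of fibroblasts to 0.797 to 4.85 CPM. In each treated group the 2 libraries differed for these 9 genes, with replicate 1 the higher in control cells and replicate 2 in the libraries labelled KO, and their CPM are therefore given by library.

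Among the subunits, *Nfkb1* (chromosome 3, 135247619 to 135354511, minus strand; NCBIM37, as are all gene positions here) was at 89.1 and 92.4 CPM in untreated control cells and at 70.5 and 87.3 CPM in untreated libraries labelled KO. After TGF-β it was at 210 and 119 CPM in control cells and at 96.4 and 253 CPM in the libraries labelled KO. Both treated libraries thus lay above both untreated ones in each genotype, though within each treated group the higher library was far above the other. *Nfkb2* (chromosome 19, 46379227 to 46386580, plus strand) was at 117 and 81.7 CPM in untreated control cells and at 201 and 103 CPM after TGF-β. In the libraries labelled KO it went from 112 and 115 CPM to 124 and 310 CPM. Its groups overlapped in control cells and did not in the libraries labelled KO. *Nfkb2* shares 4 exon bases with *Psd* on the opposite strand.

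*Rela* (chromosome 19, 5637483 to 5648130, plus strand), which encodes the main activating subunit, was at 97.0 and 86.9 CPM in untreated control cells, 143 and 80.6 CPM in treated control cells, 103 and 108 CPM in untreated libraries labelled KO and 113 and 245 CPM in treated ones. Here 1 treated control library lay below both untreated ones. *Relb* (chromosome 7, 20191566 to 20214787, minus strand) was at 24.1 and 18.2 CPM in untreated control cells and at 73.6 and 23.0 CPM after TGF-β. In the libraries labelled KO it was at 20.9 and 25.7 CPM untreated and at 21.5 and 81.4 CPM treated. For *Relb*, 1 library of each treated group stayed within the untreated range, and the other was far above it.

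Among the feedback genes, *Nfkbia* (chromosome 12, 56590398 to 56593634, minus strand) was at 42.0 and 22.2 CPM in untreated control cells and at 154 and 43.9 CPM after TGF-β. In the libraries labelled KO it was at 29.5 and 46.4 CPM untreated and at 33.8 and 192 CPM treated. *Nfkbie* (chromosome 17, 45692665 to 45700118, plus strand), which encodes a second IκB, was also split between the 2 libraries of each treated group, at lower levels. It was at 9.65 and 8.30 CPM in untreated control cells, 30.1 and 9.31 CPM in treated control cells, 13.9 and 15.8 CPM in untreated libraries labelled KO and 9.37 and 39.4 CPM in treated ones. In control cells both treated libraries of *Nfkbia* lay above the untreated ones, while 1 of *Nfkbie* lay within their range. In the libraries labelled KO, 1 treated library lay within the untreated range for *Nfkbia* and below it for *Nfkbie*.

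*Tnfaip3* (chromosome 10, 18720716 to 18735463, minus strand) had the largest range. It was at 27.1 and 32.2 CPM in untreated control cells and at 450 and 156 CPM after TGF-β, and in the libraries labelled KO at 21.4 and 18.9 CPM untreated and at 36.6 and 427 CPM treated. All 4 treated libraries were above all 4 untreated ones, but treated replicate 1 labelled KO only just. *Birc3* (chromosome 9, 7848699 to 7873186, minus strand) was rare, at 3.26 and 3.66 CPM in untreated control cells and 10.4 and 4.13 CPM in treated ones. In the libraries labelled KO it was at 0.661 CPM (3 counts) and 2.53 CPM untreated and at 1.71 and 7.47 CPM treated, so that its untreated level rests on few counts. *Bcl3* (chromosome 7, 20393811 to 20408119, minus strand) was at 23.4 and 18.8 CPM in untreated control cells and at 26.8 and 10.3 CPM in treated ones. It was at 18.7 and 27.5 CPM in untreated libraries labelled KO and at 12.7 and 50.5 CPM in treated ones, with 1 treated library below and 1 above both untreated ones in each genotype. *Bcl3* shares 161 exon bases with Gm16175 on the opposite strand, and since no source used here says whether counting used the strand, reads of the 2 cannot be told apart.

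**Figure D1:**
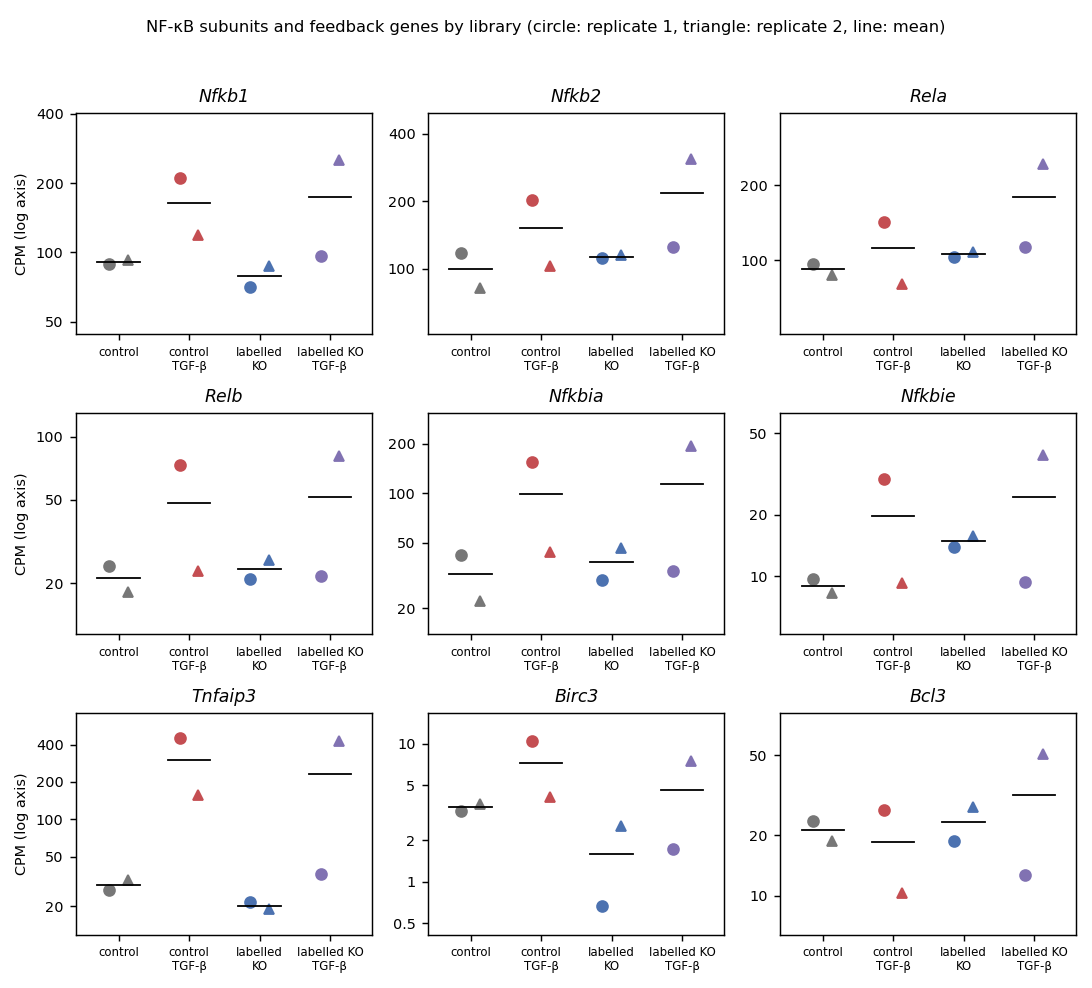
Level of each of the 9 genes in the 8 libraries, as CPM on a log axis, with replicate 1 as a circle, replicate 2 as a triangle and the mean of the 2 libraries as a line. In treated control cells the circle, and in treated libraries labelled KO the triangle, is the higher of the 2 for all 9 genes, as for *Tnfaip3* at 450 against 156 CPM and 427 against 36.6 CPM.

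Compared per length of exon, as CPM per kilobase, *Rela* led the untreated control cells at 33.9 ± 2.62 (SD, n = 2), followed by *Nfkb2* at 30.3 ± 7.68 (SD, n = 2), *Nfkbia* at 20.4 ± 8.86 (SD, n = 2) and *Nfkb1* at 18.9 ± 0.481 (SD, n = 2). The libraries of neighbours in this order overlapped among these 4. *Bcl3* at 8.49 ± 1.31 (SD, n = 2) and *Relb* at 5.44 ± 1.08 (SD, n = 2) came next and did not overlap with each other. *Tnfaip3* at 4.11 ± 0.498 (SD, n = 2) overlapped with *Nfkbie* at 3.71 ± 0.394 (SD, n = 2), and *Birc3* was last at 0.691 ± 0.0572 (SD, n = 2). In untreated libraries labelled KO the first 5 genes stood in the same order without overlap between neighbours, from *Rela* at 38.9 ± 1.49 (SD, n = 2) to *Bcl3* at 9.31 ± 2.50 (SD, n = 2). After TGF-β *Nfkbia* had the highest mean level per length in both genotypes, 62.9 ± 49.6 (SD, n = 2) in control cells and 71.7 ± 71.0 (SD, n = 2) in the libraries labelled KO, but its libraries overlapped with those of *Nfkb2*. *Tnfaip3* moved from place 7 to place 3 in control cells and from place 8 to place 5 in the libraries labelled KO, again overlapping with its neighbours in the order.

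The first comparison asked whether TGF-β changed the 9 genes in control cells. 8 of the 9 had a higher mean after TGF-β, with a median log2 fold change of 1.07 against 0.02 over all genes tested, but none passed the test, an adjusted p below 0.05 (edgeR's quasi-likelihood test with Benjamini-Hochberg adjustment) and an absolute log2 fold change above 0.5. Over all genes 9.16% were called, 4.69% as higher. *Tnfaip3* came nearest, at 3.35 on the log2 scale (SE 0.91, edgeR adjusted p = 0.0508), followed by *Nfkb1* at 0.86 (SE 0.40, edgeR adjusted p = 0.200) and *Nfkbia* at 1.63 (SE 0.76, edgeR adjusted p = 0.206). *Relb* was at 1.19 (SE 0.62), *Nfkbie* at 1.14 (SE 0.66), *Birc3* at 1.07 (SE 0.71), *Nfkb2* at 0.61 (SE 0.41), *Rela* at 0.28 (SE 0.34) and *Bcl3* at -0.18 (SE 0.59) on the log2 scale. The libraries of 4 genes, *Nfkb1*, *Nfkbia*, *Tnfaip3* and *Birc3*, lay wholly above the untreated ones, as did those of 27.4% of all genes. Without adjustment 1 of the 9, *Tnfaip3*, had p below 0.05, against 3491 of all 13028 genes. Where a library is left out, its group has a single library, which is assumed to vary like the other groups, and the difference between the 2 libraries no longer enters the spread. The call of *Tnfaip3* depended on the settings, as it passed without treated control replicate 2 (3.92, edgeR adjusted p = 0.0339) and without treated replicate 1 or 2 labelled KO (3.35 each, edgeR adjusted p = 0.00179 and 0.00169). It also passed in DESeq2 (adjusted p = 0.0349) and in a fit of the 4 libraries compared (3.34, edgeR adjusted p = 0.0108), and without the filter on low counts 6 of the 9 genes passed, against 2021 of all 20463 genes in that fit. In the fit without the filter the SE of *Tnfaip3* was 0.20 instead of 0.91, though the treated libraries differed as before. Without treated control replicate 1 the log2 fold changes of *Nfkbia*, *Relb* and *Nfkbie* dropped to 0.44, 0.10 and 0.04. In bulk RNA, a higher level in every cell and a larger share of cells with the transcript cannot be told apart.

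In the libraries labelled KO, all 9 genes had a higher mean after TGF-β, with a median log2 fold change of 1.14 against 0 over all genes tested, and again none was called, against 6.82% of all genes and 4.25% called higher. *Tnfaip3* was at 3.53 (SE 0.95, edgeR adjusted p = 0.0564), *Nfkb1* at 1.14 (SE 0.40, edgeR adjusted p = 0.132) and *Nfkb2* at 0.94 (SE 0.41, edgeR adjusted p = 0.217) on the log2 scale, and these 3 of 9 had p below 0.05 before adjustment, against 2956 of all 13028 genes. *Nfkbia* was at 1.56 (SE 0.76), *Birc3* at 1.41 (SE 0.80), *Relb* at 1.14 (SE 0.62), *Rela* at 0.76 (SE 0.35), *Nfkbie* at 0.71 (SE 0.64) and *Bcl3* at 0.44 (SE 0.59). The treated libraries of *Nfkb1*, *Nfkb2*, *Rela* and *Tnfaip3* lay wholly above the untreated ones, against 28.4% of all genes. This comparison turned on both treated libraries labelled KO. Its fold changes fell without replicate 2, while replicate 1 was the lower library for all 9 genes. Without it the treated group is 1 library and the spread comes from the other groups alone, and in that fit 5 of the 9 genes, against 801 of all 13363 genes in either direction, were called, namely *Tnfaip3* (4.44, edgeR adjusted p = 9.41e-04), *Nfkb1* (1.70), *Nfkb2* (1.48), *Nfkbia* (2.35) and *Rela* (1.24), all as higher. Without treated replicate 2 labelled KO none was called, *Tnfaip3* dropped to 0.90 and *Nfkbia*, *Nfkbie*, *Relb* and *Bcl3* were at -0.15, -0.64, -0.09 and -0.84. *Tnfaip3* was called in addition without treated control replicate 1 or 2 (3.56 each, edgeR adjusted p = 0.0304 and 0.0294) and by DESeq2 (adjusted p = 0.0268), and without the filter on low counts 7 of the 9 genes passed, against 1832 of all 20463 genes in that fit.

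**Figure D2:**
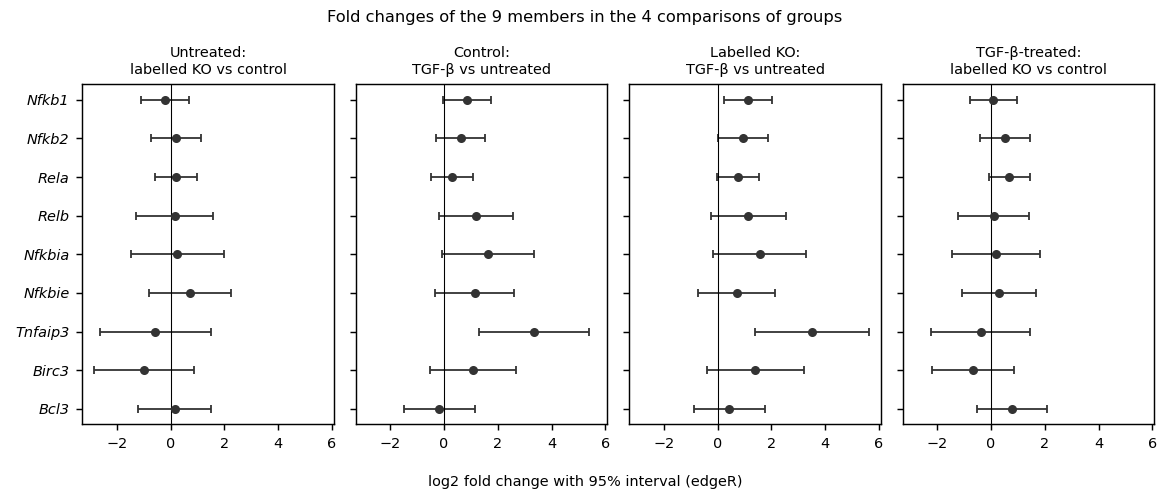
Log2 fold change of each of the 9 genes (points) with its 95% interval (bars) from edgeR in the 4 comparisons of groups. Both TGF-β comparisons have their largest value at *Tnfaip3*, 3.35 for control cells and 3.53 for libraries labelled KO, and the intervals of all 9 genes span 0 in both genotype comparisons.

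The next comparisons asked whether the libraries labelled KO differed from control cells. In untreated cells none of the 9 was called, against 1.83% of all genes, and their median log2 fold change was 0.15, with 6 above and 3 below 0. *Birc3* was at -1.0 (SE 0.83, edgeR adjusted p = 0.623), *Nfkbie* at 0.73 (SE 0.68, edgeR adjusted p = 0.662) and *Tnfaip3* at -0.57 (SE 0.92, edgeR adjusted p = 0.823), and the other 6 lay between -0.20 and 0.25. The libraries of *Rela* and *Nfkbie* were wholly higher and those of *Nfkb1*, *Tnfaip3* and *Birc3* wholly lower than in control cells, against 26.8% and 25.2% of all genes. None of the 9 had p below 0.05 before adjustment, against 1936 of all 13028 genes, and DESeq2 called none. The 95% interval of the difference for *Rela*, the narrowest of the 9, ran from -0.58 to 0.98, so that a change of that size could be present without a call. The interval is not adjusted for the number of genes tested, so that larger changes could also go without a call. Genes of chromosome 3 had a median of -0.34 in this comparison, with 80.7% of 641 below 0, and those of chromosome 7 a median of -0.25, with 75.3% of 943 below 0. *Nfkb1*, on chromosome 3, was at -0.20, and *Relb* and *Bcl3*, on chromosome 7, were at 0.15 and 0.14. The part of these chromosome-wide shifts in the 3 values was not tested.

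Between treated libraries of the 2 genotypes the 9 genes had a median log2 fold change of 0.19, and none was called, against 15.0% of all genes. The libraries of the 2 treated groups overlapped for every one of the 9, whereas they did not overlap for 55.8% of all genes. *Bcl3* was at 0.77 (SE 0.58), *Rela* at 0.68 (SE 0.34), *Nfkb2* at 0.51 (SE 0.41), *Birc3* at -0.66 (SE 0.68) and *Tnfaip3* at -0.39 (SE 0.82), and the other 4 lay between 0.09 and 0.30. None had p below 0.05 before adjustment, against 4086 of all 13028 genes, and DESeq2 called none of them. *Rela* was called higher in the libraries labelled KO without treated control replicate 1 (1.17, edgeR adjusted p = 0.0487) or without treated replicate 1 labelled KO (1.14, edgeR adjusted p = 0.0350). *Tnfaip3* was called lower without treated replicate 2 labelled KO (-3.04, edgeR adjusted p = 0.0175), where a single treated library at 36.6 CPM stands for the group. These calls again take the spread from the other groups. Without the filter on low counts 3 of the 9 genes were called, against 2823 of all 20463 genes in that fit. The difference of the TGF-β responses between genotypes was called for none of the 9, nor for any other gene (0.00% of all genes). In that test no member had p below 0.05 before adjustment, against 1134 of all genes, and DESeq2 called none of the 9 and 25 of all genes. Its values lay between -0.43 for *Nfkbie* (SE 0.91) and 0.62 for *Bcl3* (SE 0.83). The 95% interval for *Tnfaip3* ran from -2.58 to 2.93, so that the genotypes could differ widely in its response without a call.

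For these genes the 2 libraries of each treated group lay far apart. Differences of log2 CPM are given here as replicate 1 minus replicate 2 in control cells and replicate 2 minus replicate 1 in the libraries labelled KO, directions that were chosen after the values were seen, so they are a description with no test. In treated control cells all 9 differences were above 0, from 0.82 for *Nfkb1* to 1.81 for *Nfkbia*, with a median of 1.37. In treated libraries labelled KO all 9 were above 0 as well, from 1.11 for *Rela* to 3.54 for *Tnfaip3*, with a median of 1.97. Over all genes tested the medians were 0.01 and 0.00, and the median absolute differences were 0.33 and 0.22. Of all 13028 genes, 4450 had differences above 0 in both treated groups and 4416 had differences below 0 in both. Differences above 1 were seen for 6 of the 9 genes in treated control cells, against 5.17% of all genes, and for 9 of the 9 in treated libraries labelled KO, against 2.42%.

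Taking both treated groups, *Relb*, *Nfkbia*, *Nfkbie*, *Tnfaip3*, *Birc3* and *Bcl3* had differences above 1 in each, 6 of 9 genes, as had 135 of 13028 genes (1.04%). Differences below -1 in both were seen for 87 of the 13028 genes and for none of the 9. *Nfkb1*, *Nfkb2* and *Rela* were between 0.82 and 0.97 in control cells. For *Tnfaip3*, 8 genes had differences at least as large in both groups, itself included, and for *Nfkbia* 18. In untreated cells the corresponding differences were smaller, from -0.25 for *Tnfaip3* to 0.91 for *Nfkbia* in control cells and from -0.18 for *Tnfaip3* to 1.64 for *Birc3* in the libraries labelled KO. They were above 0 for 6 of the 9 genes in control cells and for 8 in the libraries labelled KO. Of all 13028 genes, 6629 and 6828 were above 0. The *Birc3* difference of 1.64 sets 3 counts against 19.

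**Figure D3:**
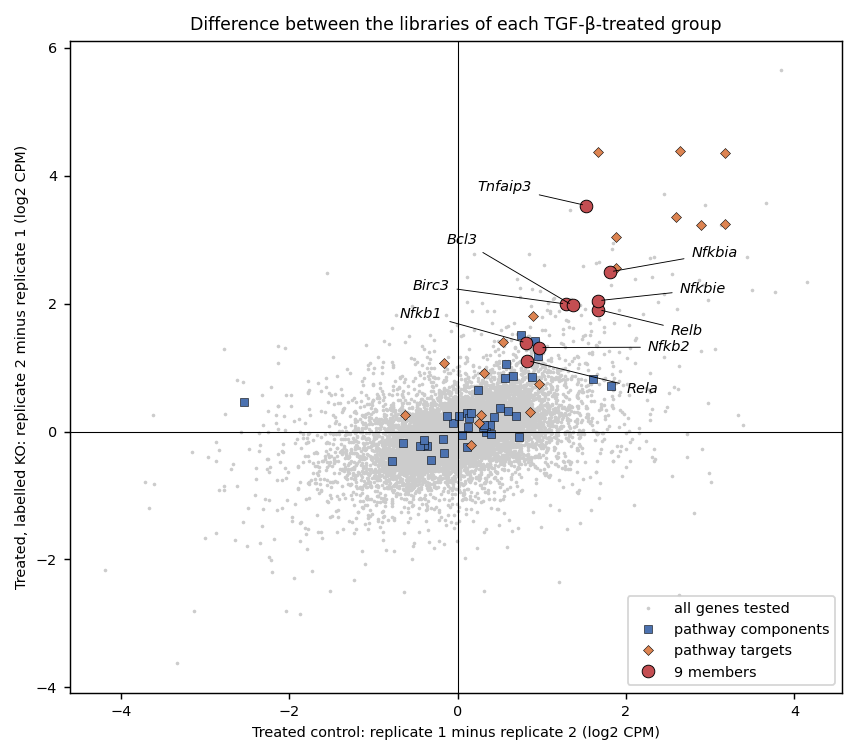
Difference of log2 CPM between the libraries of treated control cells (horizontal axis, replicate 1 minus replicate 2) and of treated libraries labelled KO (vertical axis, replicate 2 minus replicate 1), with a grey dot for each of the 13028 genes tested. The 9 genes (red) and most NF-κB targets (orange diamonds) lie in the upper right, with *Tnfaip3* at 1.53 and 3.54, while most other genes of the pathway (blue squares) lie near 0.

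Known targets of NF-κB and the other components of the pathway were examined as 2 lists of 66 genes in all, of which 58 could be tested. Of 19 targets tested, 16 had differences above 0 in both treated groups and 9 had differences above 1 in both. These 9 were *Lif*, *Cxcl1*, *Cxcl5*, *Cxcl10*, *Ccl2*, *Ccl20*, *Ier3*, *Ptgs2* and *Ereg*, which encode mainly cytokines, chemokines and growth factors. *Ptgs2*, the inducible cyclooxygenase, was at 671 and 107 CPM in treated control cells and at 28.9 and 611 CPM in treated libraries labelled KO, against 73.7 and 70.2 CPM and 17.9 and 17.8 CPM untreated. *Ccl2*, a monocyte chemokine, was at 1051 and 367 CPM in treated control cells and at 109 and 1237 CPM in treated libraries labelled KO, against 160 and 139 CPM and 163 and 165 CPM untreated. *Cxcl1*, a neutrophil chemokine, was at 52.5 and 16.4 CPM and at 2.04 and 46.3 CPM, against 39.3 and 34.7 CPM and 26.5 and 34.6 CPM untreated. For *Cxcl1* the lower treated library of each genotype thus lay below both untreated ones, and so did that of *Cxcl5*, at 47.4 CPM against 145 and 131 CPM and at 18.6 CPM against 114 and 167 CPM. These 9 targets are those with large differences in the direction defined above, so their direction is fixed by the choice. Of the other targets, *Saa3* was at -0.17 and 1.07, *C3* at -0.62 and 0.27 and *Gadd45b* at 0.15 and -0.21.

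The 39 other components tested were mainly receptors, adaptors, kinases and other IκB genes, and included *Rel*, a subunit not among the 9 genes. *Rel* differed by 0.60 and 0.33. Its log2 fold change after TGF-β was -0.05 (SE 0.34) in control cells and 0.13 (SE 0.33) in the libraries labelled KO. As a list the 39 stood nearer to all genes than the targets did, with median differences of 0.25 and 0.22 against 0.97 and 1.80 for the targets. Of the 39, 23 (59%) had differences above 0 in both treated groups, against 34.2% of all genes. None had differences above 1 in both, against 1.04% of all genes. *Tnfrsf12a* was at 1.82 and 0.72, *Traf1* at 1.61 and 0.83 and *Tlr2* at 0.92 and 1.41. *Ikbke*, an IκB kinase-related gene, was at 0.75 and 1.51, *Tnip1*, a partner of the *Tnfaip3* product, at 0.57 and 1.06, and *Traf3*, an adaptor that restrains the non-canonical pathway, at 0.96 and 1.18. The kinase genes *Chuk* and *Ikbkb* were at -0.36 and -0.22 and at 0.12 and 0.30.

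**Figure D4:**
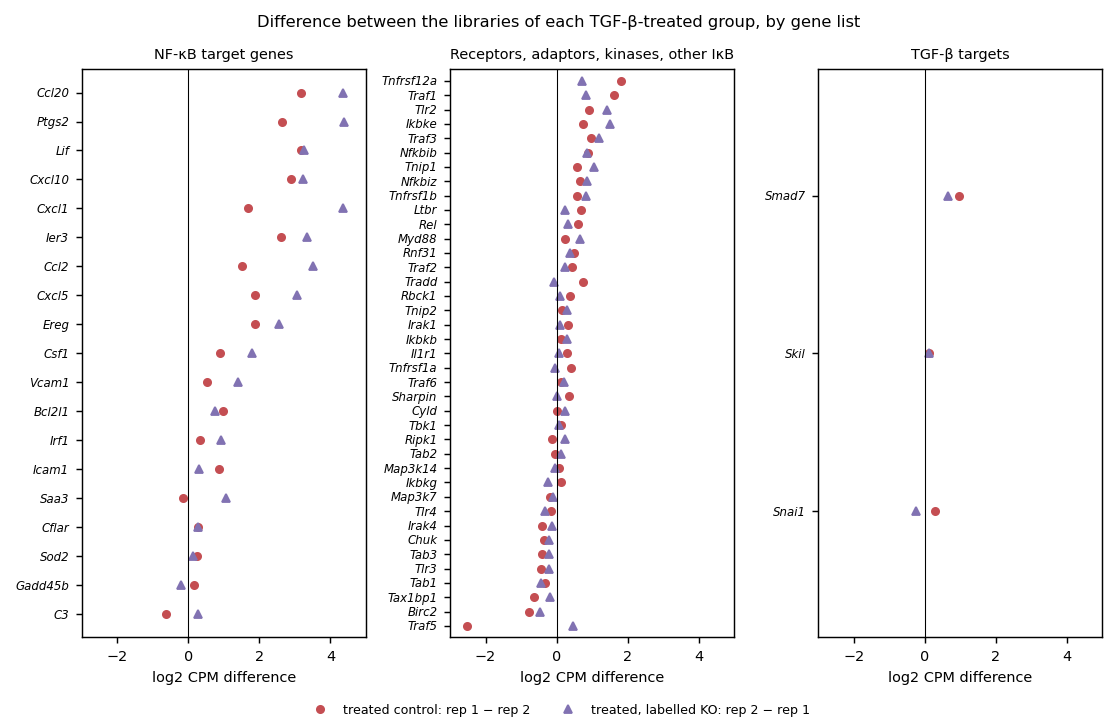
Difference of log2 CPM between the libraries of treated control cells (circles, replicate 1 minus replicate 2) and of treated libraries labelled KO (triangles, replicate 2 minus replicate 1) for the NF-κB targets, the other components of the pathway and 3 TGF-β targets. The NF-κB targets include *Ptgs2* at 2.65 and 4.39 and *Gadd45b* at 0.15 and -0.21, and the TGF-β targets include *Smad7* at 0.95 and 0.65 and *Snai1* at 0.29 and -0.25.

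Beside them, 3 genes known to respond to TGF-β were examined, which were chosen after their values were seen and do not stand for all genes that respond to it. *Snai1*, a transcriptional repressor of the epithelial state, was at 15.3 and 12.5 CPM in treated control cells and at 26.1 and 21.9 CPM in treated libraries labelled KO, from 0.724 and 0.732 CPM and 1.54 and 1.46 CPM untreated. *Skil*, a feedback inhibitor of SMAD signalling, was at 528 and 487 CPM and at 454 and 490 CPM, from 100 and 137 CPM and 82.7 and 103 CPM. Their differences between treated libraries were 0.29 and -0.25 for *Snai1* and 0.12 and 0.11 for *Skil*. *Smad7*, the inhibitory SMAD, differed by 0.95 and 0.65, the first within the range of the 9 genes and the second below it. These 3 were called higher after TGF-β in both genotypes, *Skil* for example by 2.09 (SE 0.18, edgeR adjusted p = 5.07e-04) in control cells and 2.34 (SE 0.19, edgeR adjusted p = 3.13e-04) in the libraries labelled KO.

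The keratins *Krt8* and *Krt18*, which make up most of the summed level of the epithelial markers, were higher in the libraries in which the 9 genes were higher. *Krt8* was at 3963 and 2990 CPM in treated control replicates 1 and 2 and at 3338 and 4345 CPM in treated replicates 1 and 2 labelled KO, and *Krt18* at 5797 and 3854 CPM and at 3014 and 4363 CPM. *Cdh1*, which encodes E-cadherin, was at 238 and 242 CPM in treated control cells and at 333 and 400 CPM in treated libraries labelled KO. All 5 markers summed to 10010 and 7088 CPM in treated control replicates 1 and 2 and to 6688 and 9121 CPM in treated replicates 1 and 2 labelled KO, against 4859 to 5592 CPM untreated. *Cldn4*, a tight junction gene, was at 11.8 and 1.38 CPM and at 2.45 and 12.9 CPM in the same libraries. Markers of leukocytes did not follow the split, at 2.16 and 3.81 CPM in treated control cells and at 2.53 and 2.15 CPM in treated libraries labelled KO. The part of these markers in the difference between libraries was not tested.

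Of the 58 other pathway genes, 4 were called in control cells after TGF-β (9.16% of all genes), 4 in the libraries labelled KO after TGF-β (6.82% of all genes), 2 between untreated genotypes (1.83% of all genes) and 4 between treated ones (15.0% of all genes). *Gadd45b*, a stress-response gene that both TGF-β and NF-κB induce, was at 68.6 and 61.6 CPM in treated control cells and at 77.1 and 66.7 CPM in treated libraries labelled KO, from 20.6 and 18.1 CPM and 15.9 and 12.9 CPM. It was called higher by 1.75 (SE 0.18, edgeR adjusted p = 8.90e-04) in control cells and by 2.33 (SE 0.19, edgeR adjusted p = 3.13e-04) in the libraries labelled KO on the log2 scale. *Tlr2*, a receptor for bacterial lipoproteins, was at 23.6 and 12.4 CPM and at 14.4 and 38.8 CPM after TGF-β, from 1.93 and 1.71 CPM and 3.97 and 4.12 CPM. It was called in both genotypes, by 3.30 (SE 0.54, edgeR adjusted p = 0.00771) and 2.71 (SE 0.51, edgeR adjusted p = 0.0148). *Il1r1*, the interleukin-1 receptor, was called higher after TGF-β in both genotypes, and also higher in the libraries labelled KO than in control cells, untreated and treated. It was at 13.3 and 11.7 CPM in untreated and 28.1 and 22.9 CPM in treated control cells, and at 27.3 and 25.4 CPM and 54.4 and 57.2 CPM in the libraries labelled KO. *Tab1*, a partner of the kinase TAK1, was called lower in control cells by -0.88 (SE 0.20, edgeR adjusted p = 0.0283). In the libraries labelled KO it was at -0.70 (SE 0.20, edgeR adjusted p = 0.0669) and not called. *Map3k14*, the kinase of the non-canonical pathway, was called lower in the libraries labelled KO by -0.82 (SE 0.18, edgeR adjusted p = 0.0259). In control cells it was at 0.04 (SE 0.18) and not called. Without untreated control replicate 1 or 2 the count in control cells dropped to 1, and without untreated replicate 1 or 2 labelled KO that in the libraries labelled KO dropped to 1. It was 7 in control cells without treated control replicate 2 and 8 without treated replicate 1 or 2 labelled KO. In the libraries labelled KO it was 10 without treated control replicate 1 or 2, and 13 and 2 without treated replicates 1 and 2 labelled KO.

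Between genotypes, *C3*, the central complement component, was at 55.1 and 40.3 CPM in untreated control cells and at 13.7 and 16.2 CPM in untreated libraries labelled KO, a log2 fold change of -1.66 (SE 0.26, edgeR adjusted p = 0.0164). After TGF-β it was at 45.9 and 70.8 CPM in control cells and at 11.7 and 14.1 CPM in the libraries labelled KO, a log2 fold change of -2.18 (SE 0.26, edgeR adjusted p = 0.00165). *Ikbkg* encodes the regulatory subunit of the IκB kinase complex. Between untreated libraries it was not called, at a log2 fold change of 0.74 (SE 0.16, edgeR adjusted p = 0.0590). Its levels there were 245 and 315 CPM in those labelled KO against 164 and 173 CPM in control cells. Between treated libraries it was called higher by 0.79 (SE 0.16, edgeR adjusted p = 0.0136), at 312 and 263 CPM in those labelled KO against 173 and 160 CPM in control cells. *Saa3*, an acute-phase protein of a family of closely related genes and hence uncertain, was called lower between treated libraries (edgeR adjusted p = 0.0142), with 0 and 3 counts against 36 and 36. No gene of the 2 lists was called for the difference of the TGF-β responses between genotypes. Leaving out untreated control replicate 1 or untreated replicate 1 or 2 labelled KO left 0 calls between untreated genotypes, and leaving out untreated control replicate 2 left 1. Between treated genotypes the count was 11 without treated control replicate 1 and 7 without treated replicate 2 labelled KO.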

How the data were processed

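The 9 genes were read from a single table of whole-number counts of reads per gene, deposited by the authors without normalization, with a column for each of the 8 libraries. According to the paper's methods, reads were aligned with subjunc to mm10 and mm9 and duplicates were removed with samtools rmdup, which lowers the counts of abundant genes most. The submitters' processing notes name HISAT2, limma and mm10 instead. The tool that counted reads, and whether it used the strand, are not given in the sources used here. Paper and labels also differ on the library kit and the sequencer. All 37310 identifiers and their order are those of GENCODE vM1 (NCBIM37), which gave symbols, positions and exon lengths.

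CPM with TMM factors and all tests come from edgeR 4.0.16 (R 4.3.3). Genes that passed filterByExpr (13028) were fitted with glmQLFit over all 8 libraries, by group and with no block, and tested with glmQLFTest. Calls needed an adjusted p (Benjamini-Hochberg) under 0.05 together with an absolute log2 fold change over 0.5, except for the difference of the responses, called by adjusted p alone. The SE is the absolute log2 fold change divided by the square root of F. The fit had a biological coefficient of variation of 0.180, 4 residual and 5.50 prior degrees of freedom. The study describes 2 biological replicates per condition without saying what was separate, so p-values measure only the spread between these libraries. The code was tested on simulated data. Alternatives were DESeq2 1.42.0, RLE factors, no filter on low counts, the replicate number as a block, only the 4 libraries of a comparison and each library left out in turn.

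Named genes are the 9 members, the pathway genes called in a comparison (at most 8), the targeted transcript and, for a called member, the 3 genes most like it, of which there were none. Other genes were named after their values were seen. Members, lists and tests were chosen with earlier results of these data known. A further result is not reported here.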

Additional observations from a re-analysis of the deposited data

How the results depend on the processing

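Each group has 2 libraries, and *Birc3* had as few as 3 counts in a library. In the fit as reported, no member was called in any comparison. Without the filter on low counts 6 members were called after TGF-β in control cells, 7 in the libraries labelled KO and 3 between treated genotypes. In that fit the SE of *Tnfaip3* after TGF-β fell from 0.91 to 0.20 in control cells. In the libraries labelled KO it fell from 0.95 to 0.21. The edgeR adjusted p was 5.67e-59 and 1.76e-63, while the treated libraries stood at 450 and 156 CPM and at 36.6 and 427 CPM. The cause was not tested. DESeq2 called 1 member after TGF-β in each genotype, and a fit of only the 4 libraries compared called 1 after TGF-β in control cells. With each library left out in turn, which leaves its group with a single library assumed to vary like the other groups, members called ranged from 0 to 1 after TGF-β in control cells, 0 to 5 in the libraries labelled KO and 0 to 1 between treated genotypes. Other pathway genes called without the filter were 20 after TGF-β in control cells, 18 after TGF-β in the libraries labelled KO, 14 between treated genotypes, 6 between untreated genotypes and 2 for the difference of the responses. They were 9 by DESeq2 after TGF-β in the libraries labelled KO and 5 between untreated genotypes in a fit of those 4 libraries. With each library left out they ranged from 1 to 8 after TGF-β in control cells, 1 to 13 in the libraries labelled KO, 4 to 11 between treated genotypes and 0 to 3 between untreated genotypes. RLE factors changed no count of members or of other pathway genes called. For all genes, DESeq2 called 428 between untreated genotypes and 25 for the difference of the responses, against 238 and 0.

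Replicate numbers are shared across groups but nothing says that they mark a batch. Deviations of same-numbered libraries had a correlation over genes of 0.098 between untreated groups, 0.30 in control cells, -0.0092 in the libraries labelled KO and -0.47 between treated groups. With the replicate number as a block, calls over all genes were 150, 831, 676, 1490 and 0, no member was called, and the difference of the responses of *Tnfaip3* turned to -0.11. With the numbers of the treated libraries labelled KO exchanged, 7 other pathway genes, 2809 genes in all and no member were called between treated genotypes.

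Without the filter the difference of the responses of *Relb* was 0.0011. Of 9 genes in 5 comparisons, 27 log2 fold changes, none of them called, took the other sign without some library, with these ranges. Between untreated genotypes, -0.18 to 0.38 for *Bcl3*, -0.053 to 0.47 for *Nfkb2*, -0.13 to 0.78 for *Nfkbia* and -0.045 to 0.36 for *Relb*. After TGF-β in control cells, -1.05 to 0.35 for *Bcl3* and -0.20 to 0.64 for *Rela*. After TGF-β in the libraries labelled KO, -0.84 to 1.14 for *Bcl3*, -0.15 to 2.35 for *Nfkbia*, -0.64 to 1.43 for *Nfkbie* and -0.091 to 1.82 for *Relb*. Between treated genotypes, -0.54 to 1.64 for *Bcl3*, -2.07 to 0.17 for *Birc3*, -0.76 to 0.63 for *Nfkb1*, -0.28 to 1.10 for *Nfkb2*, -1.54 to 1.38 for *Nfkbia*, -1.06 to 1.41 for *Nfkbie*, -1.16 to 1.18 for *Relb* and -3.04 to 0.59 for *Tnfaip3*. For the difference of the responses, -0.66 to 1.52 for *Bcl3*, -1.04 to 1.71 for *Birc3*, -0.54 to 0.85 for *Nfkb1*, -0.44 to 0.93 for *Nfkb2*, -1.77 to 1.15 for *Nfkbia*, -1.77 to 0.70 for *Nfkbie*, -0.15 to 0.99 for *Rela*, -1.28 to 1.06 for *Relb* and -2.45 to 1.18 for *Tnfaip3*.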

Other observations

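Other genes outside the lists were split between the libraries of the treated groups in the same way as the NF-κB genes. They were named after their values were seen, as the 12 with the largest difference in both treated groups that belong to none of the lists on the pathway. *Mmp10*, *Mmp12*, *Mmp13* and *Mmp3*, which encode enzymes that degrade extracellular matrix, were among them. *Mmp13* was at 174 and 22.4 CPM in treated control cells and at 57.0 and 667 CPM in treated libraries labelled KO, from 24.8 and 19.4 CPM and 37.0 and 35.0 CPM untreated. *Mmp10* was at 55.9 and 3.70 CPM and at 1.47 and 84.3 CPM in the treated libraries, from 2.17 and 2.56 CPM and 0 and 2.66 CPM untreated. The difference was 2.94 and 3.54 on the log2 scale for *Mmp13* and 3.84 and 5.65 for *Mmp10*.

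*Maff*, a small MAF transcription factor, was at 114 and 19.4 CPM in treated control cells and at 20.4 and 113 CPM in treated libraries labelled KO. *Cish*, a cytokine-inducible inhibitor of JAK-STAT signalling, was at 40.4 and 4.44 CPM and at 2.93 and 29.4 CPM. *Mst1r*, a receptor tyrosine kinase of epithelial cells, was at 32.2 and 6.24 CPM and at 5.95 and 40.9 CPM, and *Neurl3*, a ubiquitin ligase, was at 73.8 and 9.95 CPM and at 11.2 and 59.3 CPM. The other 4 were *Tnfaip2*, *Creb5*, *Lce1g* and *Cldn4*. In untreated libraries labelled KO, replicate 2 was also the higher for *Mmp10* (20 against 0 counts), *Mmp3* (24 against 0) and *Cish* (11 against 0). These differences were 3.72, 3.97 and 2.95 on the log2 scale. Those of the others among the 12 lay between -0.78 for *Lce1g* and 0.62 for *Creb5*. All these values are descriptions of these libraries, with no test.

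By the root mean square difference of centred log2 CPM over the 8 libraries, the genes nearest to *Nfkbia* were *Maff* (0.26), *Relb* (0.29) and *Ereg* (0.37). The nearest to *Relb* was *Plaur* (0.13), to *Nfkb1* *Fhl2* (0.15), to *Rela* *Phldb1* (0.11) and to *Tnfaip3* *Ccl7* (0.30). The 8 points share the library split described for the treated groups.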
